A study of Mus musculus with 4 samples.

Results

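Bidirectional promoters, at which a pair of genes on opposite strands starts from the same short stretch of DNA, were examined in chromatin accessibility (ATAC-seq) peaks of mouse limb buds. A peak of the E10.5 list was taken as a bidirectional promoter peak when it lay on an autosome and within 1 kb of the start sites of at least 2 protein-coding genes on opposite strands. The start site was the outer end of the gene by its strand in mm10. This rule took 1264 of 97739 autosomal E10.5 peaks, and the whole E10.5 list held 99427. The rule used position alone, and no measured value. It bears on width, because a wider peak reaches more start sites, and through width on the signal rank and on the chance of an overlap between stages. A further 12282 autosomal peaks lay within 1 kb of 1 protein-coding gene, or of several on the same strand only, and are called single-gene promoter peaks. The remaining 84193 lay farther than 1 kb from any protein-coding start.

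The study, on the regulation of En1 in the limb, assayed fore- and hindlimb cells of wild-type embryos together, in 2 replicates per stage (E10.5, called E10 in the protocol text, and E11.5). Limbs were made into single cells with trypsin and fixed in paraformaldehyde, and after lysis Tn5 transposase inserted adaptors where DNA was accessible. The deposited data are 1 peak list per stage, each named for both replicates, so no replicate spread, no depth and no test between stages could be had. The E11.5 list held 36384 autosomal peaks, of which 1231 met the same rule. Of 12 genes that mark the limb bud, 12 had an E10.5 peak within 1 kb of their start and 8 had an E11.5 peak. Among 23 genes typical of other organs the counts were 10 and 5. Over all autosomal protein-coding genes the E10.5 share was 67.8%. Of 17171 genes with no opposite-strand start within 5 kb, 63.6% had an E10.5 peak and 56.5% an E11.5 peak. The lists differ in length, so these counts show no change between stages. All intervals below are 95% Wilson intervals and cover counting error only.

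In a divergent pair the starts face away from each other and the genes are read outward from a shared stretch, which commonly lies in a CpG island and lacks a TATA box. Other opposite-strand pairs have 5′ ends that overlap, so that each gene begins inside the other. Genes for DNA repair, mitochondrial proteins and chaperones, and the replication-dependent histone genes, are textbook examples of divergent pairs. Such genes are needed in nearly every dividing cell, including those of the growing limb bud.

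The DNA between the outer starts is shown for 7 divergent pairs, because this is the stretch that both genes of a pair share. Brca1 (homologous recombination repair) and Nbr1 (an autophagy receptor), and Atm (the DNA damage kinase) and Npat (an activator of histone gene transcription), stand for the DNA repair pairs. Mrps12 and Sars2 encode a protein of the mitochondrial ribosome and the mitochondrial seryl-tRNA synthetase, and Sirt3 and Psmd13 a mitochondrial deacetylase and a proteasome subunit. The last 3 pairs each join a histone H2A gene and a histone H2B gene. Names give the minus-strand gene first. The sequences are the plus strand of RefSeq build GRCm38.p6 (mm10), 5′ to 3′, and capitals mark the letters CCAAT (the CCAAT box) or GGGCGG (the GC box) read on either strand. The stretches lie at chr11:101551956-101552106 (Brca1/Nbr1), chr9:53536829-53536888 (Atm/Npat), chr7:28741822-28741956 (Mrps12/Sars2), chr7:140882310-140882393 (Sirt3/Psmd13), chr13:21753913-21754075 (H2ac15/H2bc15), chr13:21716184-21716411 (H2bc13/H2ac13) and chr13:23574208-23574380 (H2bc7/H2ac7).
Brca1/Nbr1: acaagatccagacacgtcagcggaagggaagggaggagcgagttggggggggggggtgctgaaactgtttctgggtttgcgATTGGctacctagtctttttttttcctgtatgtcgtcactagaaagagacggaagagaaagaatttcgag
Atm/Npat: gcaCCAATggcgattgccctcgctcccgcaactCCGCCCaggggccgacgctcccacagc
Mrps12/Sars2: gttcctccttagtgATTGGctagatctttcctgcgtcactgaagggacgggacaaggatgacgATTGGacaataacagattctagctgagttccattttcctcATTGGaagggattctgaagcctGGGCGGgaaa
Sirt3/Psmd13: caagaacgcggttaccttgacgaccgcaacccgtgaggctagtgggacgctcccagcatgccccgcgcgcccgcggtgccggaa
H2ac15/H2bc15: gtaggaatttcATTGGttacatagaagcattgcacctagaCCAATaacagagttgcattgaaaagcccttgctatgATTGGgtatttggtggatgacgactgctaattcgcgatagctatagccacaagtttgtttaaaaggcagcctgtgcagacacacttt
H2bc13/H2ac13: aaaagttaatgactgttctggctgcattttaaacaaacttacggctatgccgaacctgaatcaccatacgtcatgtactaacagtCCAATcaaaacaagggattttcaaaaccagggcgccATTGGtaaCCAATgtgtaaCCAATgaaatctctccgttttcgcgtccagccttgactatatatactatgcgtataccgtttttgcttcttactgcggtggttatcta
H2bc7/H2ac7: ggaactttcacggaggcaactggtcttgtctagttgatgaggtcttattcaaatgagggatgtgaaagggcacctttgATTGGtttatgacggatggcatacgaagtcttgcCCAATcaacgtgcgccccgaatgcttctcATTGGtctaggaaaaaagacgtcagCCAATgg

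The histone stretches carry CCAAT 3 times in H2ac15/H2bc15, 4 times in H2bc13/H2ac13 and 4 times in H2bc7/H2ac7, and none of the 3 holds GGGCGG. Their GC content was 41.7%, 40.8% and 47.4%. Atm/Npat, the shortest at 60 bp, has a GC content of 71.7% with 6 CpG dinucleotides, and Sirt3/Psmd13 has 69.0% with 12 CpG in 84 bp and neither motif. Brca1/Nbr1 and Mrps12/Sars2 lie between these, at 50.3% and 48.1%. A motif match describes the letters only and says nothing of whether a factor binds there. Over 492 divergent pairs with starts 13 to 250 bp apart, the sequence table covered the whole stretch for 429, with a median GC content of 64.1% (range 37.4% to 95.2%). CCAAT was found in 125 of them (29.1%), GGGCGG in 174 (40.6%), the ETS letters CCGGAAG in 50 (11.7%) and TATAAA in 7 (1.63%).

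Bidirectional promoter peaks were wide and ranked high in the E10.5 list. Their median width was 1600 bp (quartiles 1239 and 2090, range 149 to 7230), against 1416 bp for single-gene promoter peaks and 569 bp for the remaining peaks. The authors' signal value, which behaves as a total over the peak and therefore grows with width, had a median of 5814 (quartiles 3896 and 8191). It was 4227 in single-gene promoter peaks and 704 in the remaining peaks. Ranked by signal among all autosomal E10.5 peaks, the median bidirectional promoter peak stood at percentile 92.3, the median single-gene promoter peak at 87.4 and the median remaining peak at 44.4. The rank was much the same on scales that do not sum over the peak. By signal per bp the median bidirectional promoter peak stood at percentile 92.6, with 3.54 per bp against 2.86 in single-gene promoter peaks. By the deposited −log10 p it stood at 93.6.

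Of the 1264 peaks, 769 (60.8%, interval 58.1 to 63.5) lay in decile 10, the highest, of the list by signal, compared with 5112 of the single-gene promoter peaks (41.6%). Only 57 (4.51%, interval 3.5 to 5.8) lay below the median of the list, compared with 1478 of the 12282 single-gene promoter peaks. Those low-ranking peaks were mostly side peaks. A side peak is one for which each of its genes also lies within 1 kb of a stronger bidirectional promoter peak. There were 58 side peaks, with a median width of 455.5 bp and a median percentile of 31.9, and 40 of them lay below the median of the list. The other 1206 peaks had a median width of 1632 bp and a median percentile of 92.7, and 17 of them lay below the median of the list.

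Nearly all bidirectional promoter peaks had a counterpart in the E11.5 list. Overlap by at least 1 bp was found for 1226 of 1264 (97.0%, interval 95.9 to 97.8), beside a background of 32.0% over all autosomal E10.5 peaks. The share was 84.7% for single-gene promoter peaks (interval 84.0 to 85.3) and 23.3% for the remaining peaks. Strong peaks overlap more often in any class, so the classes were also compared at like rank. In decile 10 of signal, 769 of 769 bidirectional promoter peaks overlapped, and 99.6% of single-gene promoter peaks. In decile 8 the shares were 97.7% (86 of 88) and 87.6%, and in decile 7 it was 15 of 20 against 68.6%. In deciles 1 to 5 together there were only 57 bidirectional promoter peaks. Of these, 24 of the 40 side peaks and 9 of the 17 others overlapped, and whether the E11.5 peak of the stronger neighbour supplied the overlap was not tested. Decile by decile from 1 to 5, the share was 40.0% to 64.3% of bidirectional promoter peaks. It was 11.6% to 30.0% of single-gene promoter peaks and 3.25% to 12.5% of the remaining peaks. When single-gene promoter peaks were weighted to the signal deciles of the bidirectional ones, their share was 93.7%. It was 94.7% when weighted by −log10 p and 90.8% when weighted by width, each below the interval of the bidirectional promoter peaks. The reverse comparison gave 1226 of 1231 bidirectional promoter peaks of the E11.5 list that overlapped an E10.5 peak (99.6%).

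**Figure D1:**
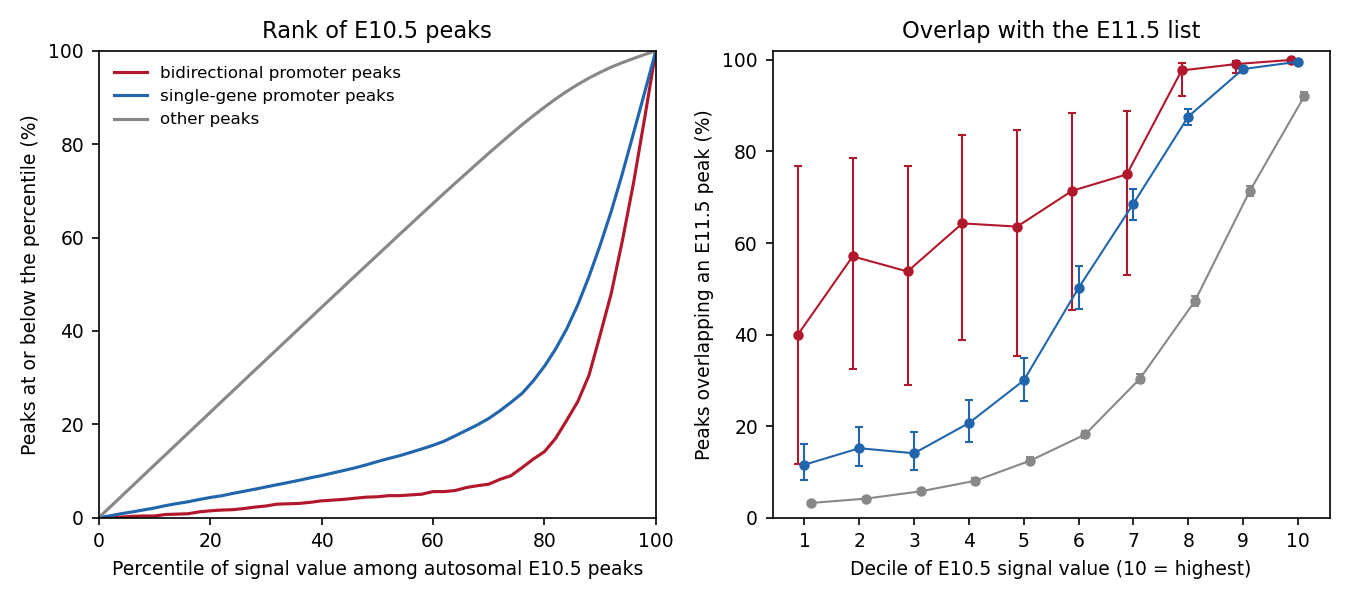
Left, cumulative share of autosomal E10.5 peaks (y axis, %) by percentile of signal value (x axis) for bidirectional promoter peaks, single-gene promoter peaks and the remaining peaks. Right, share of peaks overlapping an E11.5 peak (y axis, %) by decile of E10.5 signal (x axis), same colours as on the left, with 95% Wilson intervals as bars. 60.8% of bidirectional promoter peaks lie in decile 10, where 769 of 769 overlap an E11.5 peak, and their intervals are wide below decile 8, where there are 20 peaks or fewer in each.

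A counterpart overlapped its E10.5 peak by definition, and in most cases the summits also lay close together. Of the 1226 peaks, 1129 overlapped 1 E11.5 peak and 97 overlapped 2 or more. The summits of the stages were a median of 20.5 bp apart, and 956 pairs of summits (78.0%) were within 100 bp. For single-gene promoter peaks the median was 24 bp and the share also 78.0%. The strongest overlapping E11.5 peak was narrower than the E10.5 peak in 905 of 1226 cases, with medians of 1402 and 1618 bp. These peaks stood at a median percentile of 92.6 in the E10.5 list and of 87.5 in the E11.5 list. The lists differ in length, so the ranks place a peak within its own list and show no change between stages. Single-gene promoter peaks with a counterpart stood at 89.7 and 79.9.

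Of the 1264 peaks, 783 (61.9%) held a divergent pair as their closest pair of opposite starts, with a median start distance of 109 bp. In the other 481 (38.1%) the 5′ ends of the gene models overlapped, with a median start distance of 298 bp. The starts lay at most 250 bp apart in 779 peaks (61.6%), and both starts fell inside the peak in 1080 (85.4%). Divergent and overlapping pairs had like widths (1577 and 1640 bp), percentiles (92.5 and 92.0) and overlap with E11.5 (97.4% and 96.3%). Up to a start distance of 1000 bp, divergent pairs with more distant starts had wider peaks, and a peak that spans both starts is at least as wide as the distance between them. The median was 1496 bp in 368 peaks with starts 0 to 100 bp apart, 1626 bp with starts up to 250 bp apart, 1762 bp up to 500 bp and 1880 bp up to 1000 bp, each group beginning where the last ended. The 48 peaks with divergent starts over 1000 bp apart went against this, with 1696 bp. The percentile was 90.8 in the closest group, 93.7, 94.3 and 94.0 in the next 3 and 90.5 in the most distant one.

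**Figure D2:**
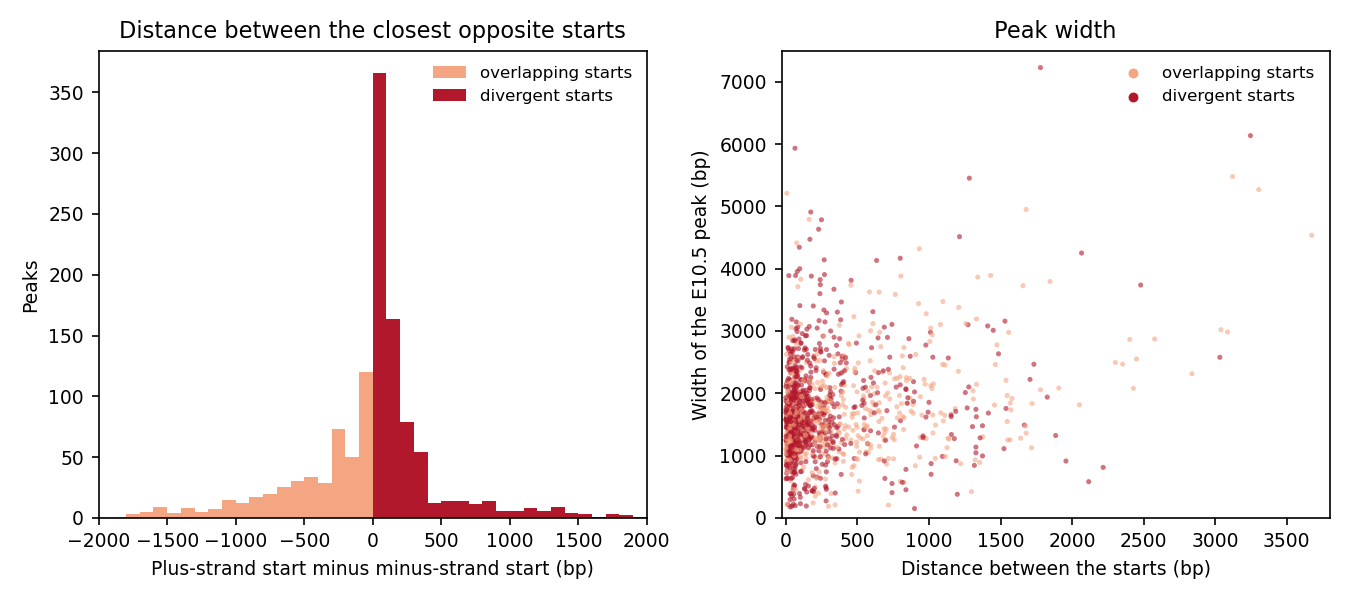
Left, number of bidirectional promoter peaks (y axis) by the plus-strand start minus the minus-strand start of the closest pair (x axis, bp, in steps of 100), with divergent pairs right of 0 and overlapping pairs left of 0. Right, width of each E10.5 peak (y axis, bp) against the distance between the starts (x axis, bp). The tallest bar is that of divergent starts at most 100 bp apart, and the left plot leaves out 19 peaks whose starts lie over 2000 bp apart.

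The summit of the peak was a median of 62 bp from the nearer start and 139 bp from the midpoint of the pair. It lay between the starts in 436 peaks (34.5%, interval 31.9 to 37.2). This share was 17.4% for divergent starts up to 100 bp apart, 43.4% in the group up to 250 bp, 56.9% in that up to 500 bp and 66.7% in that up to 1000 bp, but 45.8% for starts over 1000 bp apart, where only 13 of 48 peaks contained both starts. In single-gene promoter peaks the summit was a median of 133 bp from the nearest start, a value that is not on equal terms because a pair offers 2 starts to lie near. The choice of start site bears on these figures. For the 17492 genes with an entry in the RefSeq promoter table, the outer ends gave 971 peaks, of which 62.1% were divergent. The table's own start sites gave 898 peaks, of which 80.4% were divergent, and 44.1% of summits then lay between the starts.

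The converse question, how many divergent gene pairs had a peak, does not depend on which peaks were chosen. The gene table held 723 autosomal divergent pairs with starts at most 1 kb apart, 1446 genes in all or 7.1% of autosomal protein-coding genes. A single E10.5 peak lay within 1 kb of both starts in 696 pairs (96.3%, interval 94.6 to 97.4), and a single E11.5 peak in 691 (95.6%). The pairs were 691 with a peak at both stages, 5 at E10.5 only, 0 at E11.5 only and 27 at neither. In 669 pairs (92.5%) 1 E10.5 peak contained both starts. By distance the share with an E10.5 peak was 96.7% up to 100 bp, 97.0% from there to 250 bp, 98.0% to 500 bp and 88.9% (56 of 63) to 1000 bp.

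Genes of these pairs had a promoter peak more often than isolated genes. At E10.5, 1395 of 1446 genes in pairs (96.5%, interval 95.4 to 97.3) had a peak within 1 kb, against 10923 of 17171 genes with no opposite-strand start within 5 kb (63.6%). Without olfactory receptor genes and genes with clone or number-only names the isolated share was 70.6%. Of genes with an E10.5 peak, 99.1% in pairs (interval 98.5 to 99.5) and 88.2% of isolated genes (87.6 to 88.8) also had an E11.5 peak. The strongest peaks of the 1395 genes in pairs were only 700 distinct peaks. The intervals for genes in pairs count a shared peak for both genes and are too narrow. A gene in a pair can also be counted through the peak of its partner, a median of 100 bp away, which isolated genes lack. Peaks that contained a start were also ranked higher in pairs. The median percentile was 92.9 over 695 peaks of pairs and 89.4 over 9740 peaks of isolated genes, the median width 1606 and 1521 bp, and the signal per bp 3.65 and 3.05.

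Among the 27 pairs without an E10.5 peak, the 10 with the closest starts were Gm26650/Gm10410, Angel1/Lrrc74a, Fam217a/4933417A18Rik, Slc30a3/Dnajc5g, Acp4/Gm15517, Zfp558/Mbd3l1, Rnf151/Rps2, Plcz1/Capza3, Fkbp6/Trim50 and Prss55/Prss51, 10 to 76 bp apart. Plcz1 encodes the sperm phospholipase that activates the egg, Capza3 the sperm form of an actin capping protein, and Fkbp6 a protein of meiosis in the male. Rps2, by contrast, encodes a protein of the small ribosomal subunit, and a peak lay at another of its annotated starts, 1942 bp from the outer end. In all, 9 genes in 8 of the 27 pairs had a peak at another annotated start, and 19 pairs had no such gene.

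The 1264 peaks touched 2436 protein-coding genes, 12% of those on the autosomes. They joined 2 genes in 1241 peaks, 3 genes in 22 and 5 genes in 1. Gene families differed widely in how many of their members lay at a bidirectional promoter peak. The lists were compiled with earlier results of these data known, so the shares are descriptions. Of 76 histone genes 37 (48.7%) lay at one, of 79 genes of the mitochondrial ribosome 34 (43.0%), of 114 DNA repair genes 48 (42.1%) and of 112 genes of the respiratory chain and ATP synthase 43 (38.4%). Aminoacyl-tRNA synthetases (12 of 35, 34.3%), mitochondrial import (8 of 24, 33.3%), splicing factors (29 of 88, 33.0%), RNA polymerase and Mediator subunits (17 of 56, 30.4%), DNA replication and cell cycle genes (40 of 140, 28.6%) and chaperones (24 of 86, 27.9%) followed. Translation initiation factors (22.6%), proteasome subunits (22.0%), cytosolic ribosomal proteins (17 of 82, 20.7%) and genes with a Tmem symbol (18.8%) came next. Collagens (4 of 42, 9.52%) and C2H2 zinc finger genes with a Zfp or related symbol (39 of 414, 9.42%) lay near the 12% over all genes. Olfactory receptors (0 of 1102) stood at the low end. Of the 13808 genes with any E10.5 promoter peak, 2436 lay at a bidirectional one, a higher share than 12%.

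Regulators of limb development were few among these peaks although almost all were accessible. Over all autosomal protein-coding genes, 67.8% had an E10.5 promoter peak and 12% a bidirectional one. Of 62 limb regulators, 98.4% had an E10.5 promoter peak, but only 2 (3.23%) lay at a bidirectional one. They were Shox2, a homeobox gene of the proximal limb, which is paired with Rsrc1, and Spry4, a feedback inhibitor of FGF signalling, which is paired with Arhgap26. The Shox2/Rsrc1 peak had a signal of 5970 (percentile 92.7) at E10.5, and its E11.5 counterpart 4205 (percentile 88.9). The Spry4/Arhgap26 peak had 10263 (98.2) and 3916 (87.2). Below, a number in parentheses after a signal is its percentile in the same list, and where a pair of signals is given the E10.5 value comes first. Of 169 homeobox, Sox, T-box, forkhead and related transcription factor genes, 92.3% had a promoter peak and 5 (2.96%) a bidirectional one. These 5 were Six4 with Mnat1, Foxm1 with Rhno1, Foxa3 with Sympk, Foxj3 with Frg2f1, and Foxh1 with Ppp1r16a, of which Foxh1/Ppp1r16a was named after its values were seen, to complete the count. All 5 peaks overlapped an E11.5 peak. The homeobox gene Gbx2, which the pattern of symbols behind that list does not take, was paired with LOC102637806. A peak at this pair was the narrowest of all members, at 149 bp, with a signal of 224.3 and no E11.5 overlap. It was a side peak, so each of the genes also lay near a stronger bidirectional promoter peak.

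**Figure D3:**
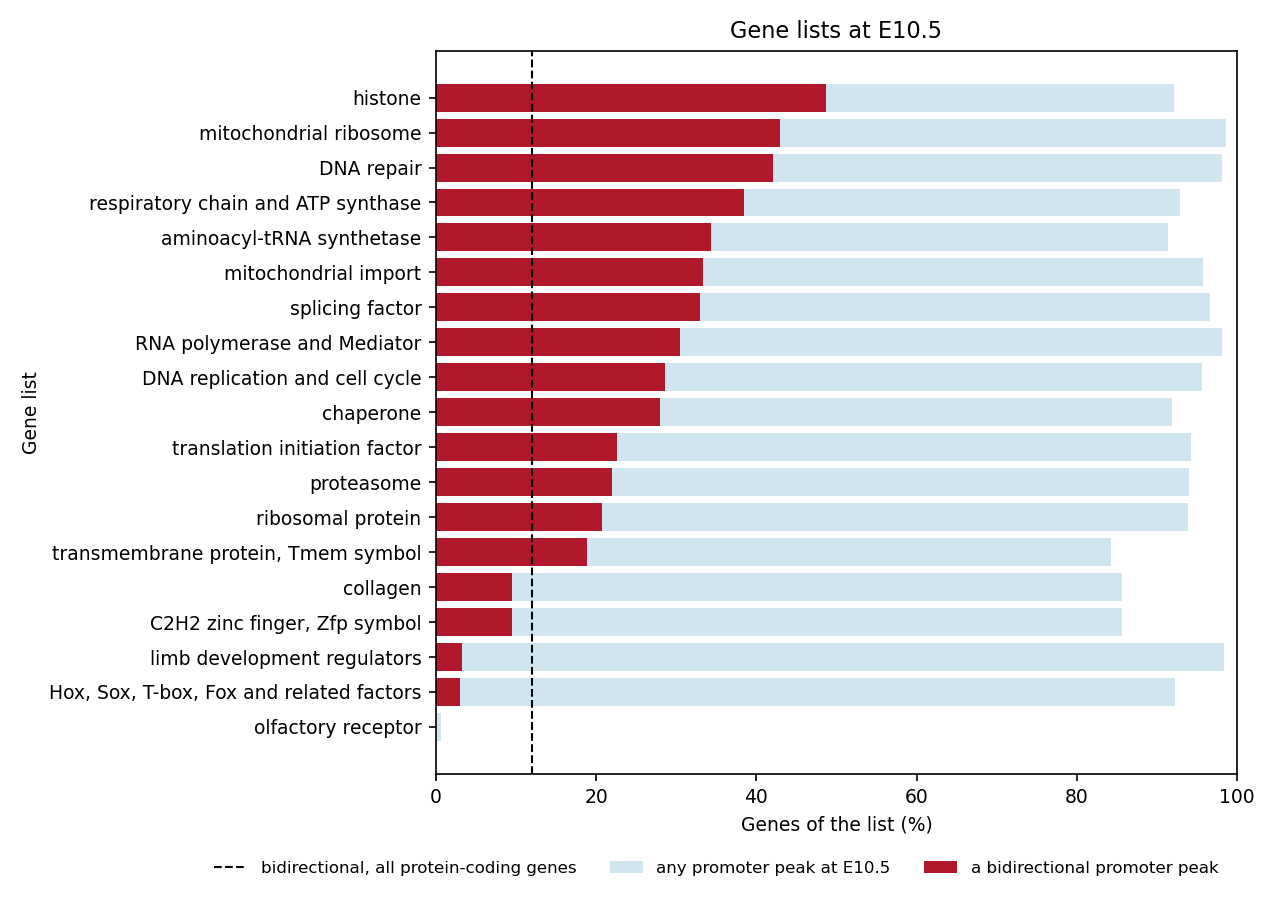
Share of the genes in each list (x axis, %) that lay within 1 kb of any E10.5 promoter peak (pale bars) or of a bidirectional promoter peak (red bars, drawn over the pale ones), with the dashed line at 12%, the share over all autosomal protein-coding genes. Histone genes have the longest red bar at 48.7%, while limb regulators combine a pale bar of 98.4% with a red bar of 3.23%.

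The 5 bidirectional promoter peaks with the highest signal were histone gene peaks, and as a group these were wide. There were 15 peaks with histone genes, 14 on chromosome 13 and 1 on chromosome 3, and in all 15 the closest pair consisted of 2 histone genes. Their median width was 3881 bp and their median percentile 99.8, against 1594 bp and 92.2 in the other 1249 peaks, and the signal per bp was 4.66 against 3.52. Of the 15, 13 lay in the top 1% of the E10.5 list, compared with 71 of the other 1249, and all 15 overlapped an E11.5 peak. The highest value of all bidirectional promoter peaks, 28776, belonged to chr13:23570113-23575022. This peak is 4910 bp wide, ranked 29 of 97739 and lies within 1 kb of the starts of H2ac8, H2bc8, H2bc7, H2ac7 and H3c4. Its summit lay 2731 bp from the nearer start of H2bc7/H2ac7, outside the stretch shown above. The next 4 values were also from histone clusters. They were 26801 at H2ac24/H4bc24 and H4c18, 26395 at H2bc23/H2ac23 and H4c17, 24507 at H2ac11/H2bc11 and H4c9, and 23460 at H2bc13/H2ac13 and H3c10. The E11.5 counterparts of these 5 peaks stood between percentiles 99 and 99.9 of their list.

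Not all histone pairs ranked so high. H2bc1/H2ac1, whose products are the testis forms of H2B and H2A, had a 272 bp peak with a signal of 607.2 (percentile 39.6) and an E11.5 counterpart of 265.4 (13.7). A side peak of H2bc7/H2ac7 had 6833 (94.5). At H2ac20/H2bc21 on chromosome 3, the E10.5 peak had 16157 (99.7), and its strongest E11.5 counterpart 2887 (80.2). Histone genes are near-identical copies, and how reads that map to several places were treated is not given in the sources used here. Its part in these values was not tested.

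After the histone clusters, the highest signal belonged to the Brd2/H2-DMa peak (21920), where Brd2 encodes a bromodomain protein, Ankrd13b/Git1 (21850), Srgap2/Fam72a (21608) and Mus81/Cfl1 (21146), where Mus81 encodes a structure-specific nuclease and Cfl1 cofilin. The starts of Brd2/H2-DMa and Ankrd13b/Git1 are over 3 kb apart (3121 and 3246 bp), and these peaks of 5480 and 6137 bp are among the widest. The E11.5 counterpart of Srgap2/Fam72a was 4241 bp wide against 4320 bp, with a signal of 16621 (99.9). Ankrd13b/Git1 instead overlapped 3 E11.5 peaks, of which the strongest was 1829 bp wide with a signal of 3364 (83.7).

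Of 21 gene pairs listed as known or possible bidirectional promoters and found in the gene table, 15 were members and 6 did not meet the rule. In the gene table these 6 had both starts on the same strand or, for Dnaja3/Nmral1, opposite starts 35286 bp apart. The strongest peak of each of the 15 stood at a median percentile of 96.9, from 79.8 to 99.4. Brca1/Nbr1, with starts 152 bp apart, had a peak at chr11:101551459-101553335 with a signal of 11222 (percentile 98.7) and an E11.5 counterpart of 6138 (95.7). Its summit lay 622 bp from the nearer start, outside the 151 bp shown above. Atm/Npat, 61 bp apart, had 9307 (97.6) and 7186 (97.5), with the summit 17 bp from a start. Both peaks were of like width at the stages, 1877 and 1927 bp for Brca1/Nbr1 and 1955 and 2015 bp for Atm/Npat.

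Other DNA repair genes shared promoters with genes of other roles. Among the strongest were Xrcc3 (homologous recombination) with Zfyve21, at 13513 (99.3), and Tdp1 (which removes topoisomerase adducts) with Efcab11, at 13017 (99.2). Ung (uracil excision) and Alkbh2 (reversal of DNA alkylation) were the only pair with both genes on the repair list, at 9707 (97.9). Mcm4/Prkdc joins a subunit of the replicative helicase with the catalytic subunit of DNA-PK, with 7085 (percentile 95) and 7539 (97.9). Wrap53/Trp53 had a wide peak of 3407 bp with 13866 (99.4) at E10.5, and overlapped 2 E11.5 peaks, the stronger with 3245 (82.8). Among replication and cell cycle genes, Mcm7 with Ap4m1 had 10587 (98.4) and 8347 (98.7). The thymidine kinase gene Tk1 with Afmid had an E10.5 signal of 10499 (98.3) and an E11.5 signal of 2063 (73.2). Smc6 with Gen1 had 8868 (97.2) and 7625 (98.0).

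Mitochondrial genes formed a further large group. The highest peaks at mitochondrial ribosome genes were those of Abhd8/Mrpl34 (12859), Mrpl41/Pnpla7 (11795) and Mrpl40/Hira (11049), all above percentile 98 of the list. Mrpl46/Mrps11, 42 bp apart and the only pair with both genes on that list, was weaker, with an E10.5 signal of 2358 (76.9) and an E11.5 signal of 2732 (79.0). Mrps12/Sars2, shown above, had 6989 (94.8) and 3339 (83.5), with its summit between the starts and 29 bp from the nearer one. Respiratory chain genes included Ndufa13/Tssk6 (12748, complex I), Uqcrh/Lrrc41 (11454, complex III) and Atp5j/Gabpa (10079), the last of which joins an ATP synthase gene and the gene of an ETS factor subunit. The Atp5j/Gabpa counterpart at E11.5 had 10376 (99.5). Hspd1 and Hspe1, which encode the mitochondrial chaperonin and its co-chaperonin, had 8577 (96.9) and 7604 (98.0). Sirt3/Psmd13 had 4932 (percentile 90) and 4541 (90.5), with its summit 10 bp from a start. Surf1/Surf2, where Surf1 serves assembly of cytochrome oxidase, ranked lower, with 2725 (79.8) and 1691 (69.0).

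Ppat/Paics, a pair of purine synthesis genes, had 8752 (97.1) and a side peak of 981.5 (54.8), and Gart/Son, whose starts are 852 bp apart, had 9643 (97.9). Psmb9 (an immunoproteasome subunit) with Tap1 (the peptide transporter) had an E10.5 signal of 6037 (92.9) and an E11.5 signal of 2284 (75.3). The type IV collagen chains of basement membranes are encoded by head-to-head pairs, and their peaks were unlike. Col4a1/Col4a2 had 13755 (99.4) in a peak of 3712 bp, with 3654 (85.6) at E11.5. Col4a4/Col4a3 had 562.3 (37.0) in a peak of 765 bp, with 353.2 (26.1) at E11.5. Zinc finger genes were paired with each other in 7 peaks, from 11157 at Zfp668/Zfp646 down to 1475 at Zfp445/Zkscan7. In 785 of the 1264 peaks neither gene of the closest pair was on any list.

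**Figure D4:**
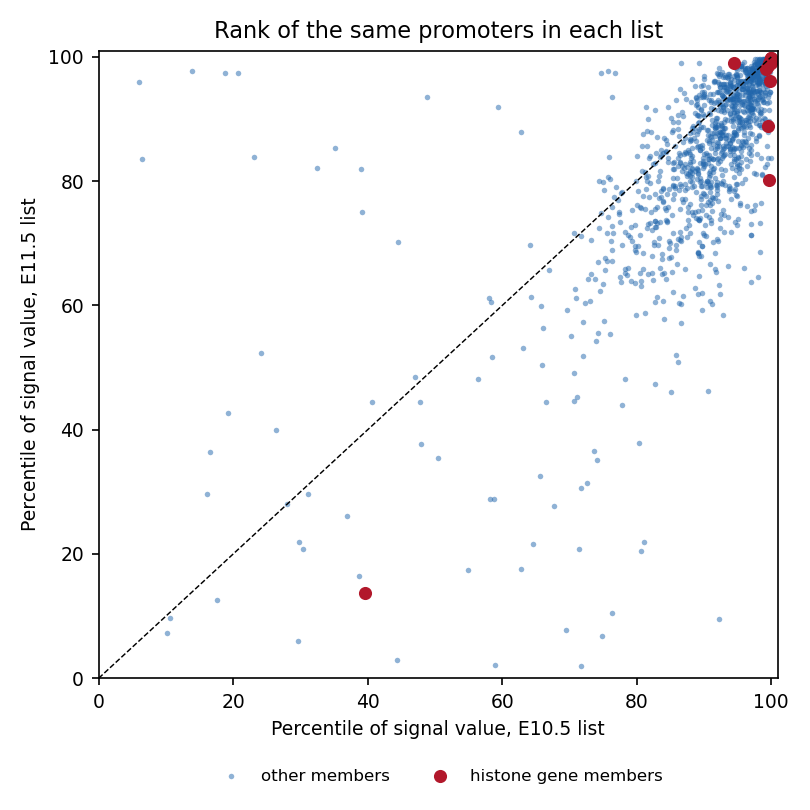
Percentile of signal value of each bidirectional promoter peak in the E10.5 list (x axis) and of its strongest overlapping peak in the E11.5 list (y axis), for the 1226 peaks with a counterpart, with histone gene peaks in red and the dashed line at equal percentiles. Most points lie in the upper right corner, with medians of 92.6 and 87.5, and the red point at 39.6 and 13.7 is H2bc1/H2ac1.

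The 38 peaks without an E11.5 counterpart ranked low, with a median percentile of 37.0 and a median width of 569.5 bp. Of these, 16 were side peaks of a stronger bidirectional promoter peak. Of the other 22, 14 had overlapping gene starts, 8 were divergent and 5 were divergent with starts at most 1 kb apart. The highest value was 3990 (percentile 86.5) at Arhgef39/Car9, where Car9 encodes a carbonic anhydrase. Wnt9b/Wnt3, a pair of Wnt ligand genes whose models overlap by 1097 bp, followed with 3407 (83.8) in a peak of 3474 bp. Its −log10 p was 4.84, and its summit lay 1393 bp from the nearer start. Then came 2310030G06Rik/Cryab with 3067 (82.0), where Cryab encodes a small heat shock protein, and Aire/Dnmt3l with 2372 (77.0), genes known from the thymus and the germ line. The next 6 were Btbd19/Tctex1d4 (1749), Bco2/Il18 (1645), Tssk3/Fam229a (1592), Clec11a/Shank1 (1491), Calcoco2/Ttll6 (1420) and 1700001C19Rik/AI661453 (1389). Kirrel2/Nphs1, genes of the kidney podocyte slit diaphragm, had 1015 (55.8) and no counterpart, and was the only member on the list of genes typical of other organs. The 3 lowest values of all members were 224.3 at Gbx2/LOC102637806, 212.8 at Cetn4/Bbs12 and 210.3 at Gorasp1/Ttc21a. All 3 were side peaks, and none of these overlapped an E11.5 peak.

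At the 1 kb limit of the rule, peaks whose farther start lay over 900 and at most 1000 bp away numbered 23, with a median width of 633 bp and percentile of 62.8, and 17 overlapped an E11.5 peak (73.9%). The 35 peaks just outside, up to 1100 bp away, had a median width of 1154 bp and percentile of 79.2, and 24 overlapped (68.6%).

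Promoter sequences of 300 bp (250 before to 50 after a start) were matched for 1182 of 1390 genes of divergent closest pairs (85.0%) and 789 of 934 genes of overlapping ones (84.5%). The divergent pairs here are those with starts at most 1 kb apart, while the overlapping pairs have no such limit. Divergent genes had a median GC content of 62.0% and a median CpG ratio (observed over expected) of 0.849, and overlapping genes 62.7% and 0.81. Over all autosomal protein-coding genes the medians were 56.7% and 0.597, with 80.8% matched. Genes without a promoter peak had 46.0% and 0.172. GC content over 55% together with a CpG ratio over 0.65 was found in 70.1% of divergent, 64.4% of overlapping and 39.7% of all promoters. Only 79.0% of the genes at single-gene promoter peaks had a sequence, so the comparison with them was void under the 80% minimum applied here and is not given. All protein-coding genes include those without a promoter peak, so these values cannot show whether the features set bidirectional promoter peaks apart.

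Motif letters were counted in the same 300 bp sequences. CCGGAAG (ETS, either strand) was found in 28.7% of divergent and 23.2% of overlapping promoters, against 12.3% of all promoters of the same length. AAGATGGC (YY1) was found in 8.46%, 4.06% and 3.21%. GGGCGG (GC box) was found in 66.9% and 59.8%, against 47.3%, and CCAAT in 44.7% and 33.0%, against 39.1%. TATAAA was less frequent, in 5.41% and 4.56%, against 13.5% of all promoters and 26.7% of those without a peak. The rarer letters TGACGTCA (the CRE palindrome) stood at 4.23% and 3.8%, against 2.4%. The NRF1 palindrome stood at 3.47% and 1.14%, against 1.37%, and the CGCG element at 2.62% and 1.14%, against 0.723%. Promoters of a close pair share much of their sequence, so a motif can be counted for both genes. As all promoters include those without a peak, these shares cannot show whether a motif sets bidirectional promoter peaks apart from single-gene ones.

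Histone promoters among these peaks differed from the rest in composition. Only genes of a closest pair were taken, 28 of the 37 histone genes at these peaks. Of these 28 genes 24 were matched, with a median GC content of 44.7%, and none of the 24 passed both the GC and the CpG limits. CCAAT was found in 24 of 24 and TATAAA in 14 (58.3%), while GGGCGG was found in 7 (29.2%). The 3 histone stretches shown above repeat CCAAT 3 or 4 times each.

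**Figure D5:**
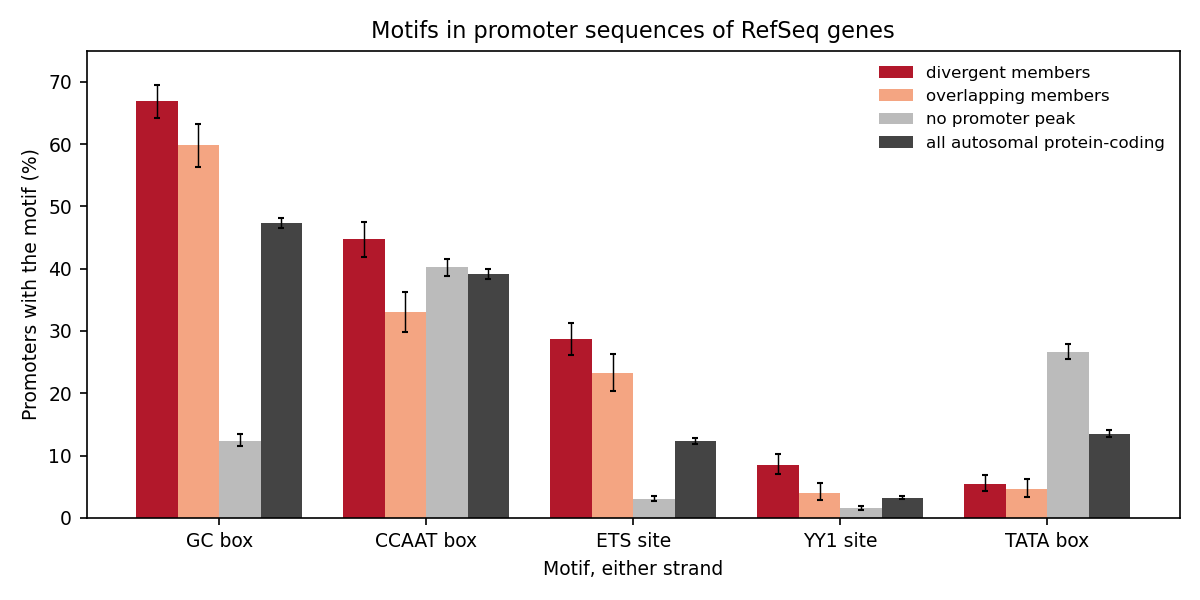
Share of promoters (y axis, %) with the letters of each motif on either strand (x axis), for genes of divergent and overlapping bidirectional promoter peaks, genes without a promoter peak and all autosomal protein-coding genes, with 95% Wilson intervals as bars. The ETS letters stand at 28.7% in divergent promoters against 12.3% of all, and TATAAA at 5.41% against 13.5%. Divergent promoters are here those of closest pairs with starts at most 1 kb apart.

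Opposite-strand starts of noncoding genes were a related arrangement outside the rule. Of the 12282 single-gene promoter peaks, 1437 had the start of a noncoding gene on the opposite strand within 1 kb. Their median width was 1601 bp, their median percentile 91.0, and 90.5% (interval 88.8 to 91.9) overlapped an E11.5 peak. Those 10845 without one had 1392 bp, 87.0 and 83.9%. Only 15213 of 28056 noncoding genes had a known strand, so some of the second group may hold such a start.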

How the data were processed

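ATAC-seq was done on 4 samples, 2 at each stage. Per the file headers, the deposited lists are narrowPeak files on mm10, 1 per stage. The submitters' processing notes name cutadapt, Bowtie2, SAMtools, deepTools and Genrich, with no versions or roles. How replicates were joined, and any Tn5 shift of read ends, are not given in the sources used here. The authors' signal value is a total over the peak, and its smallest value in either deposited list was about 200. The deposited −log10 p was used to rank and filter peaks within a list. The deposited score, which is derived from signal and width, was not used, and the q-value column of the deposited lists holds -1. Depth is unknown.

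Gene ends came from a RefSeq table of GRCm38.p6. Strand came from the RefSeq promoter table for 17492 genes and from GENCODE M1 by name on the same chromosome for 4043, in all 21535 of 21887 protein-coding genes (98.4%). NCBIM37 coordinates were not used. Overlap needed 1 bp. Percentiles are among autosomal peaks of the same list. Side peaks were defined after the data were seen. Motifs were searched on both strands of 300 bp RefSeq promoters. Stretches between starts came from the same table, and 289 that it covers from both strands were identical in all 289. Start sites were the outer gene ends, and those of the promoter table were used only as an alternative and for pairs without a peak. Exons and untranslated regions were not used here.

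Members and gene lists were chosen with earlier results of these data known. Named peaks are the 10 highest and 5 lowest by signal, the 10 highest without an E11.5 overlap, the 4 highest of each list, pairs within 1 list, known pairs, the widest and narrowest peaks, and limb regulators. For pairs without a peak, the 10 with the closest starts are named. A selection of these is printed, and some are not reported here. Alternatives tried were other distances, −log10 p minimum 5, stricter overlap, other ranks, other gene sets and other start sites. Scripts ran in Python 3.11.15 with pandas 2.3.3 and numpy 2.4.6, and were tested on simulated peaks.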

Additional observations from a re-analysis of the deposited data

Results flagged for a closer look

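The rule covered autosomes only. In the data it left aside, chromosome X held 29 E10.5 peaks and 30 E11.5 peaks that lay within 1 kb of protein-coding starts on opposite strands. They entered none of the comparisons above, and no control sample exists to set them against.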

How the results depend on the processing

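No paired analysis was possible because each stage has a single list named for replicates 1 and 2. Leaving out a replicate was likewise not possible. The unknown depth can set the number of peaks in a list. A share or median is said to move when it leaves its own 95% interval. For the number of peaks (1264) the limits were instead 842.7 and 1896, a much wider band. Under other settings 40 values stayed and 25 moved. The number of peaks fell to 735 when only divergent starts within 1 kb counted. The share overlapping E11.5 was 99.5% when the peak had to contain both starts, 98.8% at 500 bp and 91.9% at 2 kb. It was 98.6% at −log10 p of at least 5 and 98.2% without side peaks. It was 88.2% with 50% reciprocal overlap, 76.7% with summits within 100 bp and 92.9% with E11.5 peaks at −log10 p of at least 5. The median width was 1652 bp with both starts contained, 1520 bp at 2 kb and 1648 bp with promoter-table starts. The median percentile was 93.0, 91.1 and 93.0 under these 3 settings, 93.6 by −log10 p, and 87.1 at −log10 p of at least 5, where fewer and stronger peaks are ranked. Summits lay between promoter-table starts in 44.1%. Divergent pairs with an E10.5 peak were 92.1% at up to 2 kb apart, 94.6% with the E10.5 list reduced to the E11.5 number, 92.5% with both starts contained and 98.3% with promoter-table starts. The settings with promoter-table starts, without histone genes and without side peaks, and the weighting by −log10 p and width, were chosen after seeing the data.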

Other observations

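The share of bidirectional promoter peaks among all promoter peaks differed between chromosomes. It ranged from 5.08% on chromosome 18 (18 of 354) to 12.2% on chromosome 17 (82 of 673). Whether this range exceeds counting error was not tested. A description of the narrowest and widest members adds to the ranks above. The widest was a 7230 bp peak at Abhd14a/Pcbp4, with a signal of 17549 and 2 E11.5 counterparts, the stronger 1865 bp wide. The narrowest after Gbx2/LOC102637806 included peaks with summits 610 to 1033 bp from a start at Cops3/Nt5m (185 bp), Sbds/Tyw1 (186 bp) and Arl3/Sfxn2 (190 bp), with signals of 393.1, 265.4 and 402.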
